A study of Homo sapiens with 8 samples.

Results

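The proteasome subunit genes were described across 4 human thyroid cancer cell lines. They were taken as the protein-coding genes whose symbol is PSMA, PSMB, PSMC or PSMD followed by a number. The tables of all 4 lines held 39 such genes of 58884 in all, with 8 PSMA, 11 PSMB, 6 PSMC and 14 PSMD genes, and 43 pseudogenes, antisense genes and other genes with similar names were left out. TPM is used here for a level per length of all annotated exons of a gene together, on a scale where each library sums to 1000000. A mean of at least 1 TPM in every line was reached by 37 of the 39 genes. The others were PSMA8, an alpha subunit of the testis, at 0 in every library, and PSMB11, the catalytic subunit of the thymus, at 0 in 7 of 8 libraries and at 0.247 TPM (2 reads) in the FTC-133 NR1D1-vector library. Of the 37 measured genes, 34 are constitutive subunits or their assembly chaperones, and PSMB8, PSMB9 and PSMB10 are the immunoproteasome subunits.

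The libraries were made from total RNA of 8505C and CAL-62 cells given an siRNA against NR1D1 or a control siRNA, and of TPC-1 and FTC-133 cells given an NR1D1 vector or an empty vector. 8505C and CAL-62 come from anaplastic, TPC-1 from papillary and FTC-133 from follicular thyroid cancer. Each of the 8 groups was 1 library, so no difference within a line has a replicate check and no p-value is given for it. The control libraries are labelled wild type. No promoter of the vector, siRNA sequence or picking of clones is given in the sources used here. Each agent was used in its own lines, so the siRNA and the cell lines it was used in cannot be told apart, nor can the vector and its lines. "Treated" is used below for the NR1D1 siRNA in 8505C and CAL-62 and for the NR1D1 vector in TPC-1 and FTC-133, which were meant to move NR1D1 in opposite directions. The NR1D1 product, REV-ERB alpha, is a clock repressor that acts through ROR elements. Its level was 15.7 TPM in siNR1D1 and 25.8 TPM in siControl 8505C cells, and 31.5 TPM in siNR1D1 and 51.3 TPM in siControl CAL-62 cells. With the vector it was 260 TPM against 230 TPM with the empty vector in TPC-1, and 162 TPM against 128 TPM in FTC-133. The log2 ratios of NR1D1, treated over control, were -0.68 in 8505C, -0.69 in CAL-62, 0.17 in TPC-1 and 0.35 in FTC-133.

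The 26S proteasome degrades proteins tagged with ubiquitin. Its 20S core is a barrel of alpha rings (PSMA genes) around beta rings (PSMB genes), and the catalytic sites are in PSMB6 (beta1, caspase-like), PSMB7 (beta2, trypsin-like) and PSMB5 (beta5, chymotrypsin-like). The 19S regulatory particle has a base with ATPases (PSMC genes) that unfold the substrate and a lid that holds the deubiquitinase PSMD14. In cells exposed to interferon gamma, PSMB9, PSMB10 and PSMB8 are built into new cores at the beta1, beta2 and beta5 sites, which alters the peptides made for MHC class I molecules.

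The promoter letters shown first are those of the immunoproteasome genes, on which the comparison with the constitutive subunits turns. RefSeq windows of GRCh38.p14, from 250 bases before to 50 bases after an annotated start, were found for 34 of the 39 genes. They were searched on both strands for GAAANNGAAA, the core letters of an interferon-stimulated response element (ISRE). A match was found in windows of 4 of 34 genes (11.8%), against 4.38% of 27305 genes with a window and 3.57% of all 35116 windows. These were PSMB8, PSMB10, PSMB4 and PSMA4. Counted in bases from the annotated start of its window, the match began at -4 in PSMB8, where it ran over the start, at -21 in PSMB10, at -68 in PSMB4 and at -240 in PSMA4. PSMB8 and PSMA4 have further annotated starts, whose windows held no match. Each is given here 5′ to 3′ on the gene's own strand as 30 bases with the match in capitals, read as TTTC and GAAA on either strand.
PSMB8, chr6:32844032-32844061, minus strand: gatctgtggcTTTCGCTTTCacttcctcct
PSMB10, chr16:67936852-67936881, minus strand: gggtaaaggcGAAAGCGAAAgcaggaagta
PSMB4, chr1:151399495-151399524, plus strand: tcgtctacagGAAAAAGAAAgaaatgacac
PSMA4, chr15:78540155-78540184, plus strand: atagtgaagaGAAAATGAAAggagagcgcc

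PSMB9 had no such match in its window, whose 250 bases before the start are shown because the gene shares its promoter region with TAP1, the peptide transporter of MHC class I loading. The RefSeq starts of TAP1 and PSMB9 face away from each other with 487 bases between them on chromosome 6, and their windows share 13 bases. The window of this TAP1 start held ISRE-like letters, shown as 30 bases with the match in capitals, and that of a further TAP1 start held none.
PSMB9, chr6:32853942-32854191, plus strand: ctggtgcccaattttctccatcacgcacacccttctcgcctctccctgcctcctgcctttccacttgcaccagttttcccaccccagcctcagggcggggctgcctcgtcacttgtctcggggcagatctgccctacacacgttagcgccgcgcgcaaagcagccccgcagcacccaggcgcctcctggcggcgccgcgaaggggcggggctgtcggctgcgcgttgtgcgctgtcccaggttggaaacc
TAP1, chr6:32853819-32853848, minus strand: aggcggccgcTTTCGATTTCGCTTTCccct

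Of the further motifs searched in the same windows, 3 are given. TGACNNNGC, the core of the antioxidant response element that NFE2L1 and NFE2L2 bind, was in windows of 10 of 34 genes (29.4%), against 16.1% of all genes with a window. TAGGTCA, the core of the ROR element bound by REV-ERB alpha, was in 1 of 34 (PSMA6, 2.94%), against 2.29%, and the E-box CACGTG of the clock factors in 2 of 34 (5.88%), against 8.77%. No ISRE-like match in a member overlapped a match to another motif. A match is a run of letters and not a measured binding site.

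The immunoproteasome subunits were higher in the treated library of every line. The 3 genes in 4 lines gave 12 log2 ratios, all above 0, and the 95% counting interval of the fold lay above 1 in 10 of the 12. Of all genes with a mean of at least 1 TPM, 29.8% had such an interval in 8505C, 26.7% in CAL-62, 27.1% in TPC-1 and 27.7% in FTC-133. With the mitochondrial genes kept in the total, the ratios in CAL-62 were -0.06 for PSMB8, 0.02 for PSMB9 and 0.08 for PSMB10, so that PSMB8 changed sign there. The other 9 ratios kept their sign under that scaling and all 12 kept it after trimmed-mean rescaling. Intervals come from read numbers recovered from the tables and cover counting error only.

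PSMB8 (chr6:32840717-32844703, minus strand) forms the beta5 site of the immunoproteasome. It was at 122 TPM in siNR1D1 and 68.4 TPM in siControl 8505C cells, 46.7 and 36.7 TPM in siNR1D1 and siControl CAL-62 cells, 108 and 83.5 TPM with the NR1D1 and the empty vector in TPC-1, and 139 and 94.6 TPM with the NR1D1 and the empty vector in FTC-133. Within each line the treated library was the higher one, by 1.79-fold (95% interval 1.63 to 1.97) in 8505C, 1.27-fold (1.08 to 1.5) in CAL-62, 1.29-fold (1.2 to 1.4) in TPC-1 and 1.47-fold (1.36 to 1.59) in FTC-133. PSMB8 was thus the most even of the immunoproteasome genes, with log2 ratios from 0.34 to 0.83. Its 5′ end overlaps PSMB9, which lies on the other strand, and 14% of its coding bases lie in exons of a gene on the opposite strand.

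PSMB9 (chr6:32844136-32859585, plus strand) takes the beta1 site. It was at 41.9 TPM in siNR1D1 and 20.1 TPM in siControl 8505C cells, 13.2 and 9.75 TPM in siNR1D1 and siControl CAL-62 cells, 7.93 and 2.97 TPM with the NR1D1 and the empty vector in TPC-1, and 52.7 and 42 TPM with the NR1D1 and the empty vector in FTC-133. The folds were 2.08 (1.75 to 2.48) in 8505C, 1.35 (0.983 to 1.85) in CAL-62, 2.68 (1.88 to 3.89) in TPC-1 and 1.25 (1.10 to 1.42) in FTC-133. Its interval in CAL-62 included 1, where it rested on 76 reads in the siNR1D1 and 92 reads in the siControl library. The TPC-1 fold rested on 115 and 44 reads in the NR1D1-vector and the empty-vector library.

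PSMB10 (chr16:67934502-67937087, minus strand) takes the beta2 site. It was at 40.5 TPM in siNR1D1 and 14.9 TPM in siControl 8505C cells, 7.52 and 5.20 TPM in siNR1D1 and siControl CAL-62 cells, 25.8 and 16.9 TPM with the NR1D1 and the empty vector in TPC-1, and 56.7 and 28.9 TPM with the NR1D1 and the empty vector in FTC-133. The folds were 2.73 (2.13 to 3.53) in 8505C, 1.42 (0.805 to 2.48) in CAL-62, 1.53 (1.24 to 1.89) in TPC-1 and 1.97 (1.65 to 2.36) in FTC-133. The CAL-62 value rested on 26 reads in the siNR1D1 and 30 reads in the siControl library, and its interval included 1. A read-through gene on the same strand, AC040162.1, holds 58.3% of the coding bases of PSMB10 in its exons. That gene was at 0.492 to 3.37 TPM, and its part in the PSMB10 values was not tested.

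The constitutive catalytic subunits of the same sites mostly lay on the other side: 10 of their 12 log2 ratios lay below 0. The median log2 ratio of all genes with a mean of at least 1 TPM was 0.05 in 8505C, 0.11 in CAL-62, 0.02 in TPC-1 and 0.03 in FTC-133. PSMB5 was at 146 TPM in siNR1D1 and 153 TPM in siControl 8505C cells, 95.2 and 172 TPM in siNR1D1 and siControl CAL-62 cells, 335 and 399 TPM with the NR1D1 and the empty vector in TPC-1, and 419 and 433 TPM with the NR1D1 and the empty vector in FTC-133. It was lower in the treated library of all 4 lines, and its fold interval lay below 1 in CAL-62 (0.555, interval 0.487 to 0.631) and TPC-1 (0.839, interval 0.798 to 0.882). PSMB6 was at 159 TPM in siNR1D1 and 135 TPM in siControl 8505C cells, 128 and 189 TPM in siNR1D1 and siControl CAL-62 cells, 224 and 284 TPM with the NR1D1 and the empty vector in TPC-1, and 248 and 275 TPM with the NR1D1 and the empty vector in FTC-133. It was lower in the treated library of every line but 8505C. PSMB7 was at 397 TPM in siNR1D1 and 496 TPM in siControl 8505C cells, 328 and 502 TPM in siNR1D1 and siControl CAL-62 cells, 729 and 999 TPM with the NR1D1 and the empty vector in TPC-1, and 581 and 478 TPM with the NR1D1 and the empty vector in FTC-133. It was lower in the treated library of every line but FTC-133, where its fold was 1.22 (1.16 to 1.28).

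The balance between the immunoproteasome and the constitutive gene of a site is a ratio within 1 library and does not depend on how that library was scaled. The log2 ratio of the immunoproteasome gene minus that of its constitutive partner was above 0 in 12 of 12 pairs of site and line, from 0.47 for beta1 in FTC-133 to 1.71 for beta2 in 8505C. As a share of the TPM of a site, the immunoproteasome gene was higher in the treated library in 12 of 12 pairs, and the 95% counting intervals of the treated and the control library did not overlap in 11 of 12. The exception was beta2 in CAL-62. These counts were not made for other pairs of genes, so they have no background share. For single genes with a mean of at least 1 TPM, the counting interval of the fold often excluded 1. It lay above 1 for 29.8% and below 1 for 26% of genes in 8505C, and for 26.7% and 19.8% in CAL-62. In TPC-1 these shares were 27.1% and 27.6%, and in FTC-133 27.7% and 25%.

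The beta5 share of PSMB8 was the largest, at 45.5% (43.5% to 47.6%) in siNR1D1 and 30.9% (28.7% to 33.1%) in siControl 8505C cells, and 32.9% (29.3% to 36.7%) in siNR1D1 and 17.6% (15.8% to 19.5%) in siControl CAL-62 cells. It was 24.4% with the NR1D1 and 17.3% with the empty vector in TPC-1, and 24.9% with the NR1D1 and 17.9% with the empty vector in FTC-133. By TPM, PSMB8 thus came near to the level of PSMB5 in the 8505C siNR1D1 library and stayed well below it in the other 7. That comparison depends on the exon lengths used, 2997 bases for PSMB8 and 1765 for PSMB5. By reads, with no length taken into account, the PSMB8 share was 58.7% in siNR1D1 and 43.1% in siControl 8505C cells. In CAL-62 it was 45.5% in siNR1D1 and 26.6% in siControl cells.

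The beta1 share of PSMB9 was 20.9% in siNR1D1 and 13% in siControl 8505C cells, 9.39% and 4.91% in siNR1D1 and siControl CAL-62 cells, 3.41% and 1.04% with the NR1D1 and the empty vector in TPC-1, and 17.5% and 13.2% with the NR1D1 and the empty vector in FTC-133. The beta2 share of PSMB10 was 9.27% in siNR1D1 and 2.92% in siControl 8505C cells, 2.24% (1.46% to 3.24%) and 1.03% (0.702% to 1.48%) in siNR1D1 and siControl CAL-62 cells, 3.42% and 1.66% with the NR1D1 and the empty vector in TPC-1, and 8.89% and 5.70% with the NR1D1 and the empty vector in FTC-133. In control cells the beta1 share ran from 1.04% in TPC-1 to 13.2% in FTC-133, and the beta5 share from 17.3% in TPC-1 to 30.9% in 8505C. TPC-1 thus had the lowest PSMB9 share beside a PSMB8 share close to that of CAL-62 and FTC-133. The summed immunoproteasome TPM was 205 in siNR1D1 and 103 in siControl 8505C cells, 67.5 and 51.6 in siNR1D1 and siControl CAL-62 cells, 142 and 103 with the NR1D1 and the empty vector in TPC-1, and 248 and 165 with the NR1D1 and the empty vector in FTC-133. In bulk RNA, fewer cells that express a gene and less of its RNA per cell cannot be told apart.

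**Figure D1:**
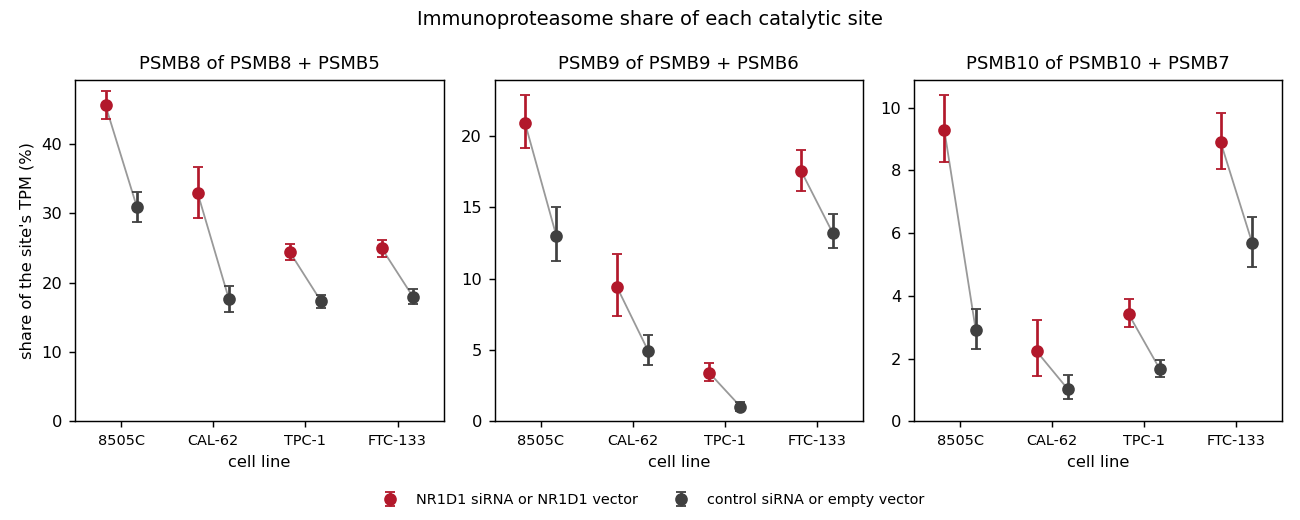
Share (%) of each catalytic site's TPM that came from the immunoproteasome gene, by cell line, with the treated library (red) left of its control (grey) and bars for the 95% exact binomial counting interval (1 library per point). The red point lies above its grey partner in 12 of 12 pairs.

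Among all 37 measured subunits, PSMB8, PSMB9 and PSMB10 were the members higher in the treated library of 4 of 4 lines (for PSMB8, 3 of 4 with mitochondrial genes kept). Of 12674 genes measured in every line 10.3% were, so 3 of 37 is near the background for the whole family. The members lower in 4 of 4 lines were PSMB3, PSMB5, PSMC6, PSMD1 and PSMD12, 5 of 37 against 8.13% of all genes.

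Across lines, limma called no gene at an adjusted p under 0.05 in any comparison (0% of 19974 genes tested), so none of the subunits rose or fell by that test. In the comparison of treated with control over all 4 lines, which was added after the values had been seen, an unadjusted p under 0.05 was reached by 1190 genes with a higher value (5.96%) and 552 with a lower one (2.76%). Members among them were PSMB10 (log2 ratio 0.84, SE 0.21, unadjusted p = 0.00612, adjusted p = 0.561), PSMB9 (0.73, SE 0.22, unadjusted p = 0.0136, adjusted p = 0.561) and PSMB8 (0.52, SE 0.16, unadjusted p = 0.0144, adjusted p = 0.561) on the higher side, and PSMB3 and PSMD1 on the lower side. When the lines were ordered by NR1D1 (the NR1D1-higher over the NR1D1-lower library of each line), the log2 ratios of PSMB8, PSMB9 and PSMB10 were -0.06, 0.02 and -0.08 and no subunit had an unadjusted p under 0.05 (limma, 368 genes higher and 550 lower at that level). The p-values measure the spread between cell lines, each as 1 observation.

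Changes past 1.5-fold (log2 0.58 on the log2(TPM + 1) scale) within a line are counts with no test, given beside the share of all genes past the same fold. In 8505C cells, of 37 subunits 3 were higher and 6 lower in the siNR1D1 than in the siControl library. The background was 25.5% of all 17976 genes higher and 16.5% lower, and 19.4% and 12.8% of protein-coding genes with a mean of at least 10 TPM. The 6 of 37 lower were thus near the share of all genes, and the 3 of 37 higher were below it. The higher ones were the immunoproteasome genes, and the lower ones were PSMD11 (-1.46), PSMD5 (-1.40), PSMA2 (-1.22), PSMA5 (-0.75), PSMC2 (-0.74) and PSMB3 (-0.65). PSMA2 was at 1.34 TPM in siNR1D1 and 4.45 TPM in siControl cells, and 97.1% of its coding bases lie in exons of another gene on the same strand.

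In CAL-62 cells, 0 subunits were higher and 8 lower in the siNR1D1 library, or 19 lower with mitochondrial genes kept. This compares with 26.5% of 20565 genes higher and 15.6% lower and, among protein-coding genes with a mean of at least 10 TPM, 15.9% and 12.8%. The 6 with the lowest ratios were PSMB3 (-1.15), PSMD11 (-0.91), PSMB5 (-0.84), PSMD5 (-0.83), PSMA5 (-0.73) and PSMC2 (-0.69). PSMB3, a non-catalytic beta subunit, was at 127 TPM in siNR1D1 and 283 TPM in siControl CAL-62 cells, and PSMC2, a base ATPase, at 103 and 167 TPM. All 6 of the subunits past 1.5-fold lower in 8505C were past it in CAL-62 too, 6 of 6 and 6 of the 8 in CAL-62. Over all 15699 genes with a mean of at least 1 TPM in both lines these shares were 38.7% of those lower in 8505C and 40.2% of those lower in CAL-62, and over better expressed protein-coding genes 47.3% and 44.6%. Over the 37 members the log2 ratios of 8505C and CAL-62 had a Pearson r of 0.66, beside 0.60 over 6882 protein-coding genes with a mean of at least 10 TPM. Without the immunoproteasome genes it was 0.52 over 34 members, below that of the 6882 genes. This is a description across genes, which are not independent.

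In TPC-1 cells, 1 subunit was higher (PSMB9, 1.17) and 4 were lower with the NR1D1 vector, against 15.8% of 17004 genes higher and 12.8% lower and, among the better expressed protein-coding genes, 8.21% and 8.34%. The 4 of 37 lower thus lay between the 2 background shares. The lower ones were PSMD2 (-0.78), PSMC4 (-0.77), PSMD8 (-0.73) and PSMC3 (-0.67). PSMC3 was at 277 TPM with the NR1D1 and 443 TPM with the empty vector, PSMC4 at 180 and 309 TPM, and PSMD8 at 218 and 361 TPM. PSMC3 and PSMC4 are ATPases of the base and PSMD8 is a lid subunit, so all 4 genes belong to the regulatory particle. In FTC-133 cells, 4 were higher (PSMA5 0.96, PSMB10 0.95, PSMA4 0.92, PSMB2 0.70) and 1 lower (PSMD1 -0.76) with the NR1D1 vector, against 19.4% of 17149 genes higher and 16.2% lower and 12% and 10.4% of the better expressed ones. The alpha subunit PSMA5 was at 133 TPM with the NR1D1 and 67.9 TPM with the empty vector, the alpha subunit PSMA4 at 67.2 and 35 TPM, and the non-catalytic beta subunit PSMB2 at 270 and 166 TPM. PSMA5 was below 0 in the other lines, with -0.75 in 8505C, -0.73 in CAL-62 and -0.40 in TPC-1. Over the 37 members the Pearson r between TPC-1 and FTC-133 was 0.34, or 0.20 without the immunoproteasome genes, beside -0.13 over the 6882 genes.

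**Figure D2:**
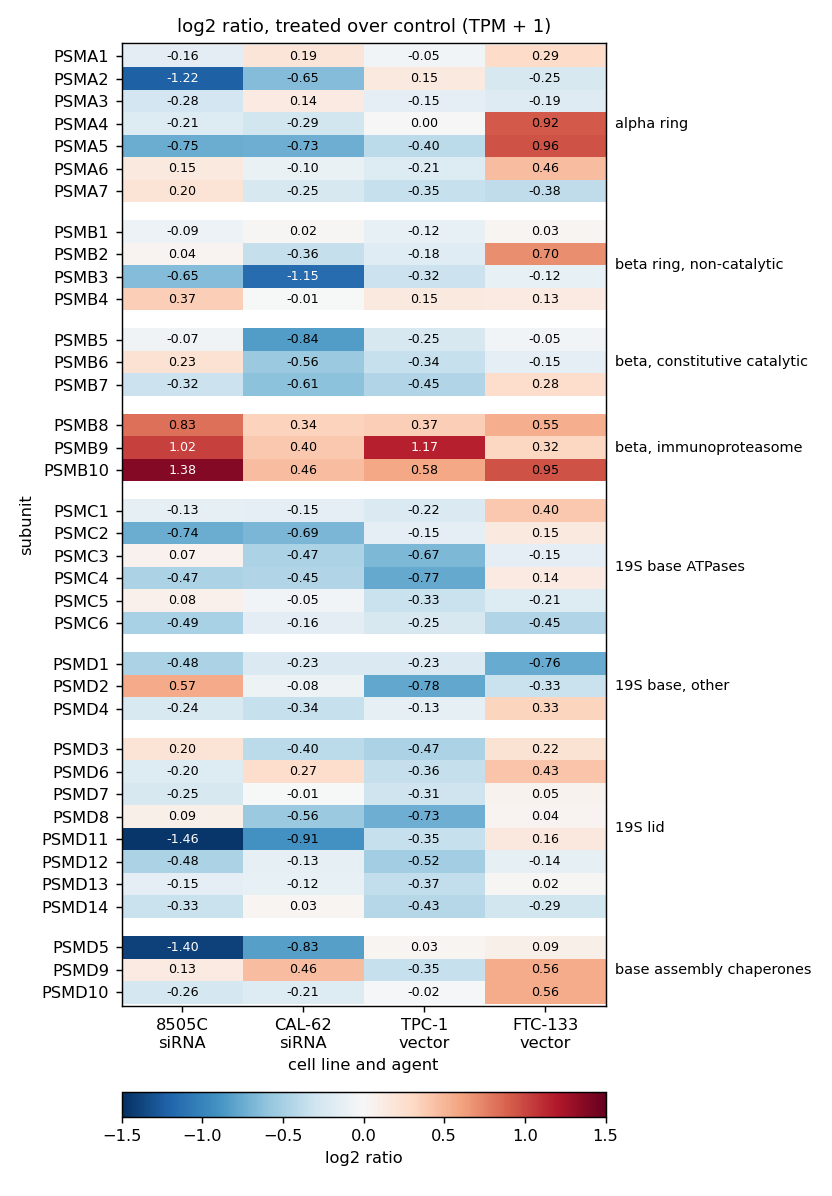
log2 ratio of treated over control (TPM + 1, colour and number) for the 37 measured subunits (rows, by role) in each cell line (columns, 1 library per group). The immunoproteasome rows are above 0 in all columns (with mitochondrial genes kept, PSMB8 in CAL-62 was at -0.06), and the lowest values are PSMD11 and PSMD5 in 8505C.

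The constitutive subunits as a group had medians below 0 in 3 lines. The median log2 ratio of the 34 genes was -0.21 in 8505C with 23 of 34 below 0, -0.24 in CAL-62 with 28 of 34, -0.32 in TPC-1 with 31 of 34 and 0.07 in FTC-133 with 13 of 34. All genes tested had medians of 0.05, 0.11, 0.02 and 0.03 in these lines, and protein-coding genes with a mean of at least 10 TPM had 0.00, 0.00, -0.03 and 0.03. The group's median kept its sign in each line with mitochondrial genes kept and with trimmed-mean rescaling. Keeping mitochondrial genes moved the median of all genes in CAL-62 to -0.28 and the group's median there to -0.64. Mitochondrial genes took 67.8% of the deposited TPM in the siNR1D1 and 57.2% in the siControl library of CAL-62, and their part in the values without them was not tested.

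Summed over all members, subunit mRNA was 0.468% of TPM in siNR1D1 and 0.496% in siControl 8505C cells, and 0.460% and 0.571% in siNR1D1 and siControl CAL-62 cells. It was 0.735% with the NR1D1 and 0.940% with the empty vector in TPC-1, and 0.612% and 0.592% with the NR1D1 and the empty vector in FTC-133. The sum was thus lower in the treated library in 3 lines and higher in FTC-133.

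**Figure D3:**
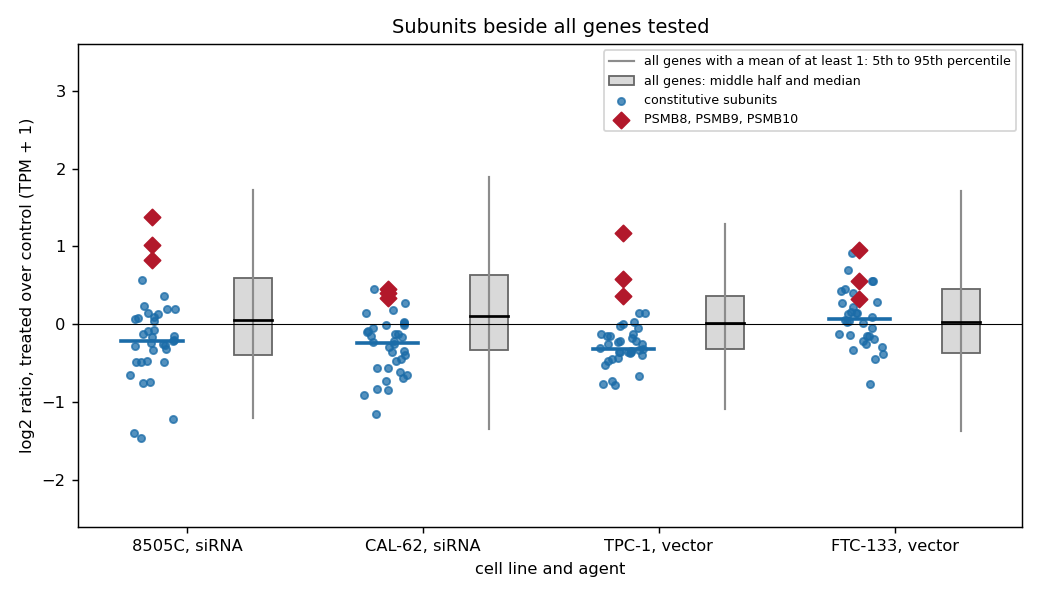
log2 ratios of treated over control (TPM + 1) for constitutive subunits (blue points, line at their median) and immunoproteasome subunits (red diamonds) beside all genes with a mean of at least 1 TPM (grey box for the middle of the genes, whisker from the 5th to the 95th percentile), by cell line. The blue median is below the median of all genes in 8505C, CAL-62 and TPC-1 and above it in FTC-133.

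By role, the 8 genes of the 19S lid were all below 0 in TPC-1, with a median of -0.40 (range -0.73 to -0.31). The 6 base ATPases were also all below 0 in TPC-1 (median -0.29) and in CAL-62 (median -0.31), with 4 of 6 below 0 in 8505C and 3 of 6 in FTC-133. The PSMC and PSMD genes, 20 in all, include the assembly chaperones PSMD5, PSMD9 and PSMD10. Their medians were -0.25 in 8505C, -0.19 in CAL-62, -0.35 in TPC-1 and 0.07 in FTC-133. The 14 measured constitutive core genes had medians of -0.13, -0.32, -0.19 and 0.08 in the same order. In the alpha ring, which gates the entry to the core, ratios ran from -1.22 to 0.20 in 8505C and from -0.38 to 0.96 in FTC-133.

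PSMD11 and PSMD5 had the lowest mean log2 ratios of the siRNA lines. PSMD11, a scaffold subunit of the lid, was at 26.3 TPM in siNR1D1 and 74.4 TPM in siControl 8505C cells, 45.3 and 86.3 TPM in siNR1D1 and siControl CAL-62 cells, 113 and 144 TPM with the NR1D1 and the empty vector in TPC-1, and 91.4 and 81.9 TPM with the NR1D1 and the empty vector in FTC-133. Its folds were 0.354 (0.323 to 0.387) in 8505C and 0.525 (0.479 to 0.576) in CAL-62. PSMD5, a chaperone of base assembly that leaves the finished particle, was at 22.8 TPM in siNR1D1 and 61.8 TPM in siControl 8505C cells, 118 and 210 TPM in siNR1D1 and siControl CAL-62 cells, 179 and 175 TPM with the NR1D1 and the empty vector in TPC-1, and 104 and 97.4 TPM with the NR1D1 and the empty vector in FTC-133. Both were lower after the siRNA in both lines, and PSMD5 was near its control level with the vector, with log2 ratios of 0.03 and 0.09.

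limma's siRNA and vector comparisons were fitted on all 8 libraries, with an estimate of the spread shared by both agents (2 residual degrees of freedom). Their SEs and p-values thus rest on the lines of the other agent too. In the siRNA comparison PSMD5 had a log2 ratio of -1.11 (SE 0.23, unadjusted p = 0.00345, adjusted p = 0.187, lower in 2 of 2 lines) and PSMD11 of -1.19 (SE 0.25, unadjusted p = 0.00406, adjusted p = 0.198, lower in 2 of 2 lines). PSMB3, PSMC2 and PSMA2 were the other members on the lower side at an unadjusted p under 0.05, with adjusted p of 0.221 for PSMB3 and 0.245 for PSMC2. PSMB10 (0.92, adjusted p = 0.289) and PSMB8 (0.59, adjusted p = 0.330) were the members on the higher side. The background at that level was 1792 genes higher (8.97%) and 1112 lower (5.57%), and members were 2 and 5 of 37.

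In the vector lines the lowest mean log2 ratios were those of PSMD2 and PSMD1, the large scaffolds of the base that receive ubiquitin receptors and shuttles. PSMD2 was at 268 TPM in siNR1D1 and 180 TPM in siControl 8505C cells, 545 and 574 TPM in siNR1D1 and siControl CAL-62 cells, 818 and 1407 TPM with the NR1D1 and the empty vector in TPC-1, and 302 and 381 TPM with the NR1D1 and the empty vector in FTC-133. Its empty-vector level in TPC-1 was the highest of any subunit in any library. PSMD1 was at 95.1 TPM in siNR1D1 and 133 TPM in siControl 8505C cells, 93.7 and 110 TPM in siNR1D1 and siControl CAL-62 cells, 181 and 212 TPM with the NR1D1 and the empty vector in TPC-1, and 80.8 and 138 TPM with the NR1D1 and the empty vector in FTC-133. PSMD1 was lower in the treated library of all 4 lines. By limma's vector comparison PSMD2 had a log2 ratio of -0.56 (unadjusted p = 0.0758) and PSMD1 of -0.50 (unadjusted p = 0.0778), both with an adjusted p of 1, and no member had an unadjusted p under 0.05, against 539 genes higher (2.7%) and 291 lower (1.46%).

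In control cells the 37 measured genes covered a wide range of mRNA levels per length. The subunits of a particle assemble in fixed proportion, but the 37 also include the assembly chaperones PSMD5, PSMD9 and PSMD10 and the alternative immunoproteasome genes. The highest means over the 4 control libraries were those of PSMD2 (635 ± 539 TPM), PSMA7 (621 ± 146 TPM), an alpha subunit, and PSMB7 (619 ± 254 TPM; SD, n = 4 lines). PSMD2 varied 7.83-fold between the control libraries of the lines, which come from tables that were normalized separately. The lowest were PSMA6 (6.13 ± 2.11 TPM), the base assembly chaperone PSMD9 (4.11 ± 1.43 TPM) and PSMA2 (3.78 ± 2.18 TPM). The length in these levels is that of all annotated exons together, which can exceed that of the transcript made. It was 6506 bases for PSMA6, 8774 for PSMD9 and 5336 for PSMA2, against 5453 for PSMD2, 1750 for PSMA7 and 1787 for PSMB7. The part of these lengths in the range and the order was not tested. In the order of the 37 means, neighbours differed by no more than the larger of their SDs in 34 of 36 pairs. The exceptions were PSMD6 above PSMB9 and PSMB10 above PSMA6.

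The 3 lowest subunits are among 5 whose coding bases lie largely in exons of an annotated read-through gene on the same strand in GENCODE 29. The shared part was 97.1% of coding bases for PSMA2, 88.6% for PSMA1, 70.4% for PSMA6, 58.7% for PSMD9 and 58.3% for PSMB10, and 0% for the other 32 measured members. The partner genes were listed at no more than 0.533 TPM apart from that of PSMB10. Where reads shared by genes are left uncounted, both genes lose them, so the levels of these 5 subunits are uncertain. The part of this in their low values was not tested, and PSMA1, at 46.3 ± 30.8 TPM, was not among the lowest. On the opposite strand, 47.7% of the coding bases of PSMC1 lie in NRDE2 exons, and the strand setting of the counting was not given in the sources used here. Without the 5 genes, the 30 remaining constitutive members ran from 38.6 to 571 TPM in 8505C, 27.6 to 729 TPM in CAL-62, 31.8 to 1407 TPM in TPC-1 and 21.6 to 707 TPM in FTC-133 control libraries.

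**Figure D4:**
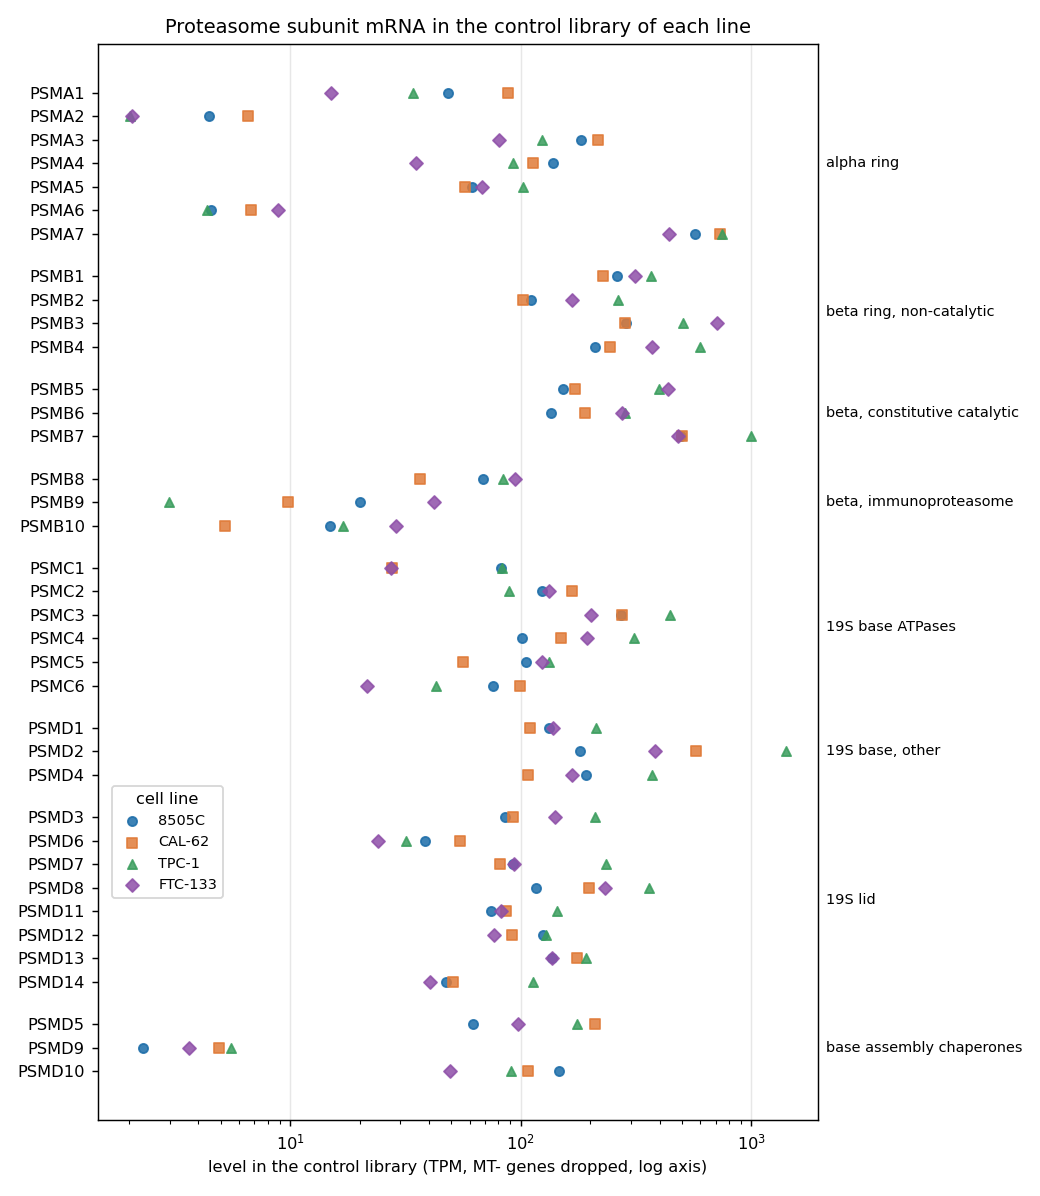
Level (TPM, log axis) of the 37 measured subunits in the control library of each of the 4 lines, by role. PSMD2 in TPC-1 is the highest point (1407 TPM), and PSMA2, PSMA6 and PSMD9 lie below 10 TPM in all lines.

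**Figure D5:**
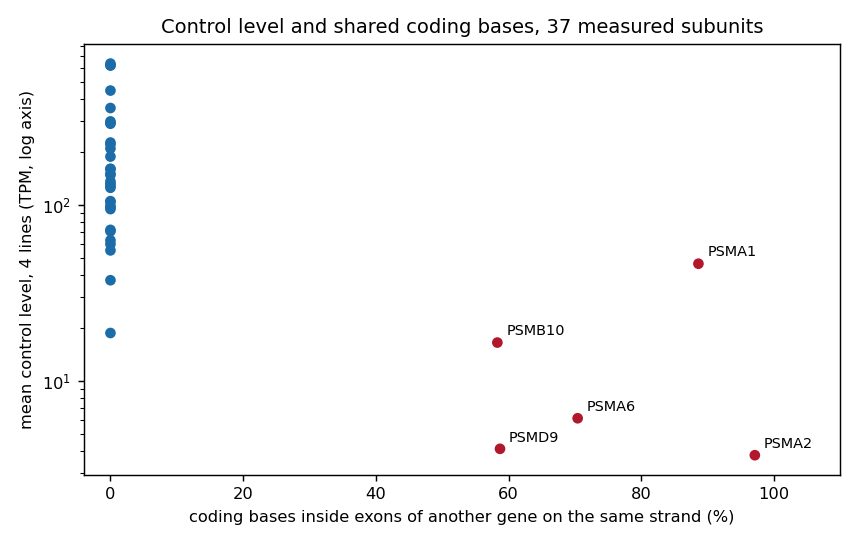
Mean control level (TPM, log axis, 4 lines) of the 37 measured subunits against the share (%) of coding bases inside exons of another gene on the same strand. The 5 named genes (red) share coding bases, and the lowest 3 subunits are among them.

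Genes around the proteasome were read from lists, with no test of a list. Of 10 regulators and caps, 1 was past 1.5-fold higher and 2 lower in 8505C, 1 and 3 in CAL-62, 0 and 2 in TPC-1 and 1 and 0 in FTC-133. Of all genes with a mean of at least 1 TPM, 25.5% were higher and 16.5% lower in 8505C, and 26.5% and 15.6% in CAL-62. The shares were 15.8% and 12.8% in TPC-1 and 19.4% and 16.2% in FTC-133. USP14, a deubiquitinase of the 19S particle, was at 83.3 TPM in siNR1D1 and 33.4 TPM in siControl 8505C cells and 97.4 and 50.6 TPM in siNR1D1 and siControl CAL-62 cells, with log2 ratios of 1.29 and 0.93 there and of -0.29 in TPC-1 and -0.30 in FTC-133. UCHL5, the other deubiquitinase of the base, had -0.59, -0.77, 0.14 and -0.04 in the same order. PSME3, the PA28 gamma activator of the nucleus, had -0.73, -0.86, -0.69 and -0.01, and ADRM1, a ubiquitin receptor, had 0.17, -0.36, -0.80 and -0.22.

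The 6 assembly factors of the 20S core and base gave 0 past 1.5-fold higher in any line, and 1 lower in each line but FTC-133, which had 0. The background is the shares of all genes given for the regulators and caps. PAAF1, which binds base ATPases, had the lowest ratios of the 6 in the siRNA lines, -0.72 in 8505C and -0.91 in CAL-62, beside -0.32 in TPC-1 and 0.23 in FTC-133. NFE2L1 is the transcription factor that drives subunit genes when the proteasome is inhibited, and DDI2 is the protease that activates it. NFE2L1 had ratios of -0.23, 0.10, -0.55 and -0.01, and DDI2 had -1.14, -0.24, -0.53 and 0.52. The 13 genes of ubiquitin supply and shuttling had medians of 0.00, -0.39, -0.24 and 0.14. Their ubiquitin fusion gene RPS27A had -0.71, -0.73, 0.09 and 0.06.

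For the immunoproteasome, 11 regulators of the interferon response and MHC class I and 8 genes of peptide supply were listed. Of the regulators, 1 was past 1.5-fold higher in 8505C, 4 in CAL-62, 2 in TPC-1 and 2 in FTC-133, and 1 was lower, in TPC-1. Of all genes with a mean of at least 1 TPM, 25.5% were past it higher in 8505C, 26.5% in CAL-62, 15.8% in TPC-1 and 19.4% in FTC-133. IRF1, a factor that acts on immunoproteasome genes after interferon gamma, was at 28.6 TPM in siNR1D1 and 14.4 TPM in siControl 8505C cells, 19.1 and 8.95 TPM in siNR1D1 and siControl CAL-62 cells, 25.8 and 39.9 TPM with the NR1D1 and the empty vector in TPC-1, and 129 and 33.5 TPM with the NR1D1 and the empty vector in FTC-133. It was higher in the treated library of 3 lines and lower in TPC-1, where PSMB8, PSMB9 and PSMB10 were higher. NLRC5, the activator of MHC class I genes, had log2 ratios of 0.13, 0.09, 0.94 and 0.28, and STAT2 had 0.41, 1.16, 0.59 and -0.05.

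Of the 8 peptide supply genes, 1 was past 1.5-fold higher in 8505C, 5 in CAL-62, 1 in TPC-1 and 2 in FTC-133, and 2 were lower, both in TPC-1. In the same order of lines, 25.5%, 26.5%, 15.8% and 19.4% of all genes were past it higher, and 12.8% were lower in TPC-1. TAP2, which pairs with TAP1, had ratios of 0.43, 1.25, -0.76 and 0.80. TAP1, named after its values were seen because it shares a promoter region with PSMB9, had 0.63, 0.64, -0.59 and 0.51. In TPC-1 the neighbours differed in sign, with PSMB9 at 1.17. PSME1, a subunit of the interferon-inducible PA28 activator that was also named after its values were seen, had 0.36, 0.07, 0.41 and 0.32. Its partner in PA28, PSME2, had 0.15, 0.01, -0.20 and 0.23.

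Immune cells express immunoproteasome genes at high levels, and 8 of their markers were read beside these results. MS4A1, of B cells, was at 0 in all 8 libraries, PTPRC, the pan-leukocyte marker, was at most 0.174 TPM, CD3E, of T cells, at most 0.461 TPM, LYZ at most 0.369 TPM and CD68 at most 0.303 TPM. CSF1R, a receptor of macrophages, was higher in the treated library of all 4 lines, as PSMB8, PSMB9 and PSMB10 were, though with mitochondrial genes kept PSMB8 in CAL-62 was not. Its levels were 0.846 TPM in siNR1D1 and 0.254 TPM in siControl 8505C cells, 0.723 and 0.505 TPM in siNR1D1 and siControl CAL-62 cells, 1.32 and 0.561 TPM with the NR1D1 and the empty vector in TPC-1, and 7.27 and 2.17 TPM with the NR1D1 and the empty vector in FTC-133. Its mean was thus below 1 TPM in every line but FTC-133. Of the genes measured in every line, 10.3% were higher in the treated library of all 4. CD68, also of macrophages, had log2 ratios of -0.06 in 8505C, 0.11 in CAL-62, -0.25 in TPC-1 and -0.33 in FTC-133. CD3E had -0.08, -0.16, -0.10 and 0.00 in the same order. ITGAM, of myeloid cells, was at 5.02 and 9 TPM with the NR1D1 and the empty vector in TPC-1 and below 0.1 TPM in the other lines. The 8 markers summed to 1.14 to 7.27 TPM in treated and 1.02 to 9.85 TPM in control libraries, lower in the treated library of CAL-62 and TPC-1 and higher in that of 8505C and FTC-133. The part of such cells in the results was not tested. Of the thyroid markers, TG and SLC5A5 were at most 0.834 TPM in every library. PAX8 was at most 0.711 TPM in 8505C and at least 95.5 TPM in the other lines, and NKX2-1 was at 0 in CAL-62 and TPC-1. Of the epithelial markers, the keratin KRT8 was at least 16.9 TPM in every library, and EPCAM was at 1007 TPM in siNR1D1 and 453 TPM in siControl CAL-62 cells and at most 2.60 TPM in the other lines.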

How the data were processed

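Total RNA from 8 libraries of 4 human thyroid cancer lines was sequenced, with 1 library per group. Per the submitters' processing notes, FastQC, MultiQC, Trimmomatic 0.38 and featureCounts 2.0.0 were used on GRCh38. For the aligner, the annotation and the strand setting, the entry is: not given in the sources used here. TPM were deposited by the authors for 8505C and CAL-62, in columns that sum to 1000000. The values deposited for TPC-1 and FTC-133 were named TPM but were read as FPKM, since the columns sum to 253330 to 261469 and value times exon length in kb (GENCODE 29) sums to 1.001 to 1.005 in units of 1000000, as FPKM does. The 37 mitochondrial genes were dropped and each column was rescaled to 1000000, which puts all 4 tables in TPM. The tables were normalized separately, so ratios of treated over control were taken only within a line. Control levels were set beside each other across lines as a description.

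log2 ratios used a pseudocount of 1, which understates changes of low genes. limma 3.58.1 (R 4.3.3, cell line term, trended prior, Benjamini-Hochberg at 0.05) was run on genes with a mean of at least 1 over the 8 libraries and tested on simulated data. Read numbers recovered from the values totalled 12.86 to 23.18 per library in units of 1000000 reads. Of the nonzero values 72.2% to 74.6% were whole within 0.02 of a read, too few for a count model, so they gave only 95% exact binomial intervals, which cover counting error. Members and lists were chosen with earlier results of these data known. Values were given for every library for PSMB5 to PSMB10 and for the 2 members with the largest mean change in each direction in the siRNA and in the vector lines. The 3 highest and lowest control levels, up to 6 members per direction past 1.5-fold per line and up to 4 genes per other list were named. Some listed genes and 1 motif are not reported here. The alternatives were a pseudocount of 0.1, mitochondrial genes kept, trimmed-mean rescaling, other filters and folds, no trend, and each line left out.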

Additional observations from a re-analysis of the deposited data

Results flagged for a closer look

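Of 37 members and 31 other named genes, 5 had log2 ratios of treated over control of opposite sign in the siRNA lines and in the vector lines, in both lines of each approach, and the difference between the approaches was not tested. Over the 12674 genes measured in every line 11.4% had this pattern, and 1 of the 37 members, PSMD5, did. Both counts, 5 of 68 genes looked through and 1 of 37 members, were thus below the background share. The mean log2 ratio of the siRNA lines minus that of the vector lines was -1.18 for PSMD5, a base assembly chaperone, whose ratios were -1.40 in 8505C and -0.83 in CAL-62, beside 0.03 in TPC-1 and 0.09 in FTC-133. It was 1.40 for the proteasome deubiquitinase USP14, with 1.29 and 0.93 beside -0.29 and -0.30. For the ubiquitin fusion gene RPS27A it was -0.79, with -0.71 and -0.73 beside 0.09 and 0.06. The core assembly chaperone PSMG4 had -0.59, with -0.43 and -0.42 beside 0.01 and 0.31. The shuttle UBQLN2 had -0.39, with ratios just below 0 (0.00 as rounded, and -0.07) beside 0.03 and 0.69. Some of these signs rest on values close to 0. The PSMD5 fold intervals included 1 in TPC-1 (0.974 to 1.07) and in FTC-133 (0.995 to 1.15). With mitochondrial genes kept, the PSMD5 ratio in TPC-1 was -0.01, so the pattern did not hold under that scaling. The ratios of the other flagged genes under that scaling are not given here. PSMG4 in TPC-1 was at 5.71 TPM with the NR1D1 and 5.65 TPM with the empty vector. The siRNA and the vector were meant to move NR1D1 in opposite directions, and each was used in its own lines, so approach and cell line cannot be told apart.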

How the results depend on the processing

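Each group was 1 library, so ratios within a line have no replicate check, and the measured members with the fewest reads were PSMA2 (26 to 108 reads per library) and PSMB10 in CAL-62 (26 and 30 reads). No paired analysis was possible because the labels give no replicate numbers, other than the pairing by cell line, which is a term of every fit. At a 2-fold threshold, members lower numbered 3 in 8505C, 1 in CAL-62, 0 in TPC-1 and 0 in FTC-133, and members higher in FTC-133 numbered 0. With mitochondrial genes kept, 19 members were past 1.5-fold lower in CAL-62 and the constitutive median there was -0.64; trimmed-mean rescaling gave -0.37. In TPC-1, members past 1.5-fold higher numbered 2 with a pseudocount of 0.1 and 0 among members with a mean of at least 10 TPM. Among genes with a mean of at least 5, limma's siRNA comparison called 2 genes, no subunit among them. Leaving out a line left an arm of 1 pair in the siRNA and vector comparisons, assumed to vary like the other lines, with 1 residual degree of freedom. The absence of calls in those fits says nothing about stability. In the added comparison over all 4 lines, the adjusted p ranged over the alternatives from 0.406 to 0.908 for PSMB10 and from 0.438 to 0.908 for PSMB8 and PSMB9; in the siRNA comparison it ranged from 0.108 to 0.677 for PSMD5 and from 0.112 to 0.677 for PSMD11, each upper end coming from a fit without 1 line. Shares of reads in place of TPM left the immunoproteasome share higher in the treated library in 12 of 12 pairs. Of the log2 ratios given for single members, 76 were recomputed under each scaling: 17 moved with mitochondrial genes kept and 9 with trimmed-mean rescaling, none of them with a change of sign past 1.5-fold. Among the 17 was PSMB8 in CAL-62, which changed sign from 0.34 to -0.06. PSMB9 (0.40 to 0.02) and PSMB10 (0.46 to 0.08) in CAL-62 also came close to 0 with mitochondrial genes kept, though they were not counted as moved.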
